A study of Mus musculus with 4 samples.

Results

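The transcripts described here are the 10 whose products decide how much pyruvate enters the mitochondrion of a muscle fiber and what becomes of it there: Pdha1 and Pdhb, the kinases Pdk1, Pdk2, Pdk3 and Pdk4, the phosphatase Pdp1, the carrier subunits Mpc1 and Mpc2, and the carboxylase Pcx. They were taken by gene symbol from a table of 51826 rows, each symbol was found on a row, and all 10 were among the 16120 genes tested. RNA came from the quadriceps of 2 WT and 2 Mef2dα2 Eko mice, all sedentary males of the C57BL6/J strain at 20 weeks of age, with 1 polyA-selected library per mouse. In Mef2dα2 Eko mice the muscle-specific α2 exon of Mef2d, a transcription factor gene, had been deleted in the germline with CRISPR-Cas9. The deletion is carried by every cell of the animal and was not restricted to muscle. The remaining MEF2D protein carries the alternative α1 exon, so these mice lack an isoform and not the factor. The study kept 2 founder lines, and the line of the sequenced mice is not given in the sources used here. The study describes WT and Mef2dα2 Eko mice as littermates, and which of them share a litter is not given in the sources used here.

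Pyruvate made by glycolysis crosses the inner mitochondrial membrane through a carrier built of MPC1 and MPC2. In the matrix, the pyruvate dehydrogenase complex converts it irreversibly to acetyl-CoA, while pyruvate carboxylase, a biotin enzyme, converts it to oxaloacetate and so refills the citric acid cycle. Pyruvate dehydrogenase kinases switch the complex off by phosphorylating its alpha subunit, and pyruvate dehydrogenase phosphatases switch it on again. In skeletal muscle, PDK4 is known for its induction by fasting and fatty acids, which spares glucose, and PDP1 is a calcium-stimulated phosphatase active in contracting muscle.

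None of the 10 transcripts passed the threshold of an adjusted p below 0.05 between genotypes in edgeR's quasi-likelihood test, against 0.416% of all genes tested. Pcx came nearest, at 75.8% of the WT mean, with both Mef2dα2 Eko mice below both WT mice. Pdk4 had a similar mean difference, with the Mef2dα2 Eko mice far from each other. Without adjustment, 2 of the 10 had p below 0.05, Pcx and Mpc2, both lower in Mef2dα2 Eko, against 11.6% of all genes in either direction and 6.41% lower. The genotypes did not overlap for 7 of the 10, with 6 lower and 1 higher in Mef2dα2 Eko, and they did not overlap for 43.8% of all genes tested, with 23% lower and 20.8% higher. The median log2 fold change of the 10 was -0.13, beside -0.01 over all genes tested.

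Levels are given as CPM, the reads of a gene scaled to the TMM-adjusted total of its library. Total expected counts lay between 72626757 and 85176059 per library. A floor of 3 counts came to 0.0348 to 0.0419 CPM and allows for counting error alone. WT replicate 1 stood apart from the other libraries: the chi-square per degree of freedom over genes was 130 to 230 between it and each of the others, and 38.7 to 45.3 among the other libraries. Mef2d itself was at 243 ± 22.6 CPM in WT and 246 ± 7.82 CPM in Mef2dα2 Eko (SD, n = 2 each), and since a count per gene covers the α1 and α2 exons alike, this level does not check the deletion.

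**Figure D1:**
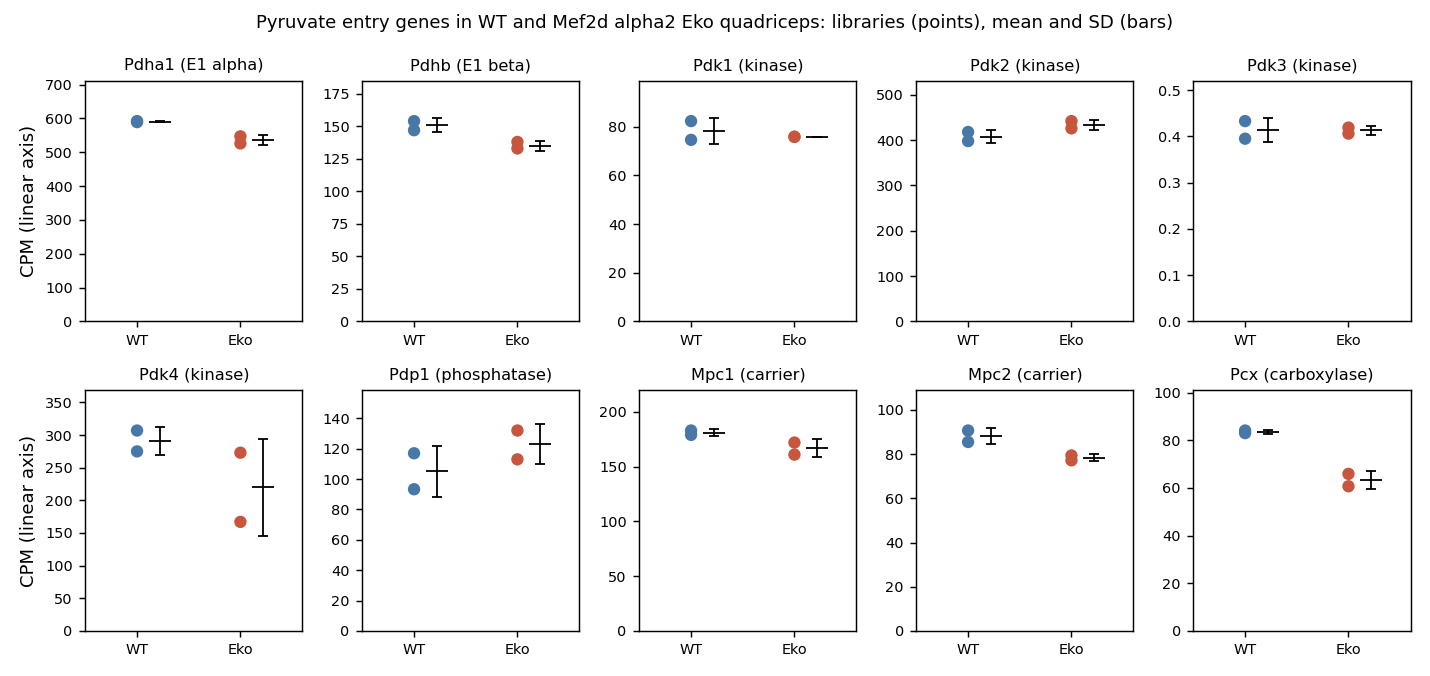
Normalized level (CPM) of each of the 10 transcripts in each library, 1 panel per gene with its own axis from 0, with WT at the left and Mef2dα2 Eko at the right; points are libraries, and the mark beside them gives the group mean and SD (n = 2). For Pcx the Mef2dα2 Eko mice, at 60.7 and 65.9 CPM, sit below the WT mice, at 84.1 and 83 CPM, while the Pdk4 point that stands alone is Mef2dα2 Eko replicate 1, at 167 CPM.

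Per kilobase of merged exons in WT muscle, Pdha1 led at 158 ± 0.563 CPM per kb, followed by Pdk2 at 129 ± 4.41, Mpc1 at 87 ± 1.5 and Pdk4 at 82.9 ± 6.28 CPM per kb (SD, n = 2 for each). Pdhb stood at 39 ± 1.42, Pdp1 at 23.3 ± 3.67, Pcx at 17.6 ± 0.166, Mpc2 at 12 ± 0.504 and Pdk1 at 10.1 ± 0.692 CPM per kb. Pdk3 was at 0.162 ± 0.0103 CPM per kb, on 30 to 35 counts in each library. Over the 4 libraries, the level ranges of Mpc1 and Pdk4 overlapped, as did those of Mpc2 and Pdk1, so the order within these 2 pairs is not larger than the spread. All other neighbors in this order were apart. The order depends on the length used: with the longest annotated transcript in place of merged exons, Mpc1 came before Pdk2 and Mpc2 before Pcx. Members of a complex were thus not at one level per length, with Pdha1 about 4 times Pdhb and Mpc1 about 7 times Mpc2.

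**Figure D2:**
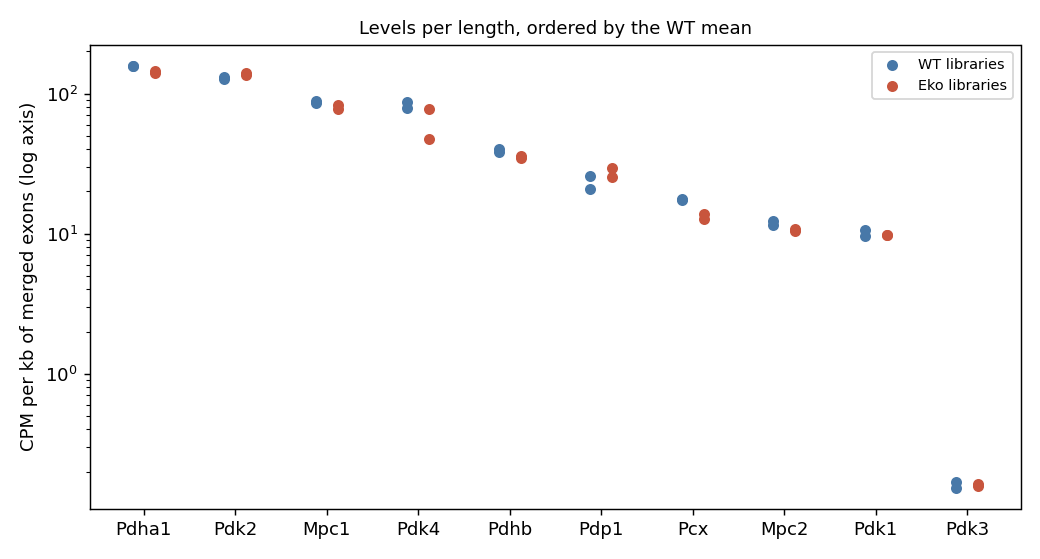
Level per length (CPM per kb of merged exons, log axis) of the 10 transcripts, ordered by the WT mean; points are the 4 libraries, colored by genotype. Pdha1, at 141 to 158 CPM per kb, is at the left and Pdk3, at 0.154 to 0.169 CPM per kb, at the right, and within a gene the genotypes lie close together beside this range.

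Pdha1 and Pdhb encode the alpha and beta subunits of pyruvate dehydrogenase itself, the alpha subunit being the one that the kinases phosphorylate. Pdha1 (ENSMUSG00000031299.10, chrX:160122209-160138413, minus strand, GRCm38) was at 592 and 589 CPM in WT and at 526 and 547 CPM in Mef2dα2 Eko. Pdhb (ENSMUSG00000021748.9, chr14:8165996-8173025, minus strand) was at 154 and 147 CPM in WT and at 138 and 133 CPM in Mef2dα2 Eko. Both Mef2dα2 Eko mice lay below both WT mice for each subunit. The differences were small, with Mef2dα2 Eko at 90.9% of the WT mean for Pdha1 (log2 fold change -0.14, 95% interval -0.3 to 0.02, edgeR adjusted p = 0.491) and at 89.9% for Pdhb (-0.15, interval -0.31 to 0.01, adjusted p = 0.449). Neither passed the test. The ratio of Pdha1 to Pdhb per length overlapped between genotypes, at 3.96 and 4.15 in WT, against 3.94 and 4.26 in Mef2dα2 Eko, a log2 difference of 0.01 (exact permutation test, two-sided, p = 1). With 2 mice against 2 the smallest p this permutation test can give is 0.333. Exons of Pdha1 overlap those of Map3k15 on the opposite strand. The libraries were stranded, but a strand setting for the counting is not given in the sources used here. Reads of Map3k15 may therefore be among those counted for Pdha1. Pdha2, the testis copy of the alpha subunit, had 0, 0, 1 and 0 counts.

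The kinases differed far more from each other than between genotypes. Pdk2, a widely expressed kinase (ENSMUSG00000038967.13, chr11:95026258-95041354, minus strand), was at 418 and 398 CPM in WT and at 426 and 442 CPM in Mef2dα2 Eko. It was the only one of the 10 with both Mef2dα2 Eko mice above both WT mice, at 106% of the WT mean (log2 fold change 0.09, interval -0.08 to 0.25, edgeR adjusted p = 0.677). Pdk1, a hypoxia-responsive kinase (ENSMUSG00000006494.11, chr2:71873224-71903858, plus strand), was at 74.6 and 82.3 CPM in WT and at 75.8 and 75.9 CPM in Mef2dα2 Eko. The Mef2dα2 Eko values of Pdk1 lay between the WT values (-0.05, interval -0.22 to 0.13, adjusted p = 0.846). Pdk3 (ENSMUSG00000035232.8, chrX:93764607-93832201, minus strand) was at 0.395 and 0.433 CPM in WT and at 0.406 and 0.419 CPM in Mef2dα2 Eko. At this depth its interval ran from -0.83 to 0.82 on the log2 scale, so a difference smaller than that was not detectable (adjusted p = 0.997).

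Pdk4 (ENSMUSG00000019577.6, chr6:5483351-5496309, minus strand) varied most between mice of a genotype. It was at 307 and 275 CPM in WT and at 167 and 273 CPM in Mef2dα2 Eko. Mef2dα2 Eko replicate 1 stood well below the others, and replicate 2 lay just under the lower WT mouse. The mean was 291 ± 22.1 CPM in WT and 220 ± 74.7 CPM in Mef2dα2 Eko (SD, n = 2 each), a log2 fold change of -0.40 with an interval from -0.89 to 0.08 (edgeR adjusted p = 0.503). Without Mef2dα2 Eko replicate 1 the log2 fold change was -0.08 (adjusted p = 0.858), and without Mef2dα2 Eko replicate 2 it was -0.80 (adjusted p = 0.0494), so the size depends on which mouse is kept. Each of these fits has a lone Mef2dα2 Eko mouse, which is assumed to vary as the WT mice do. With no filter on low counts, all 4 mice gave -0.41 and a call (adjusted p = 7.63e-05). That setting called 2.01% of its genes lower, against 0.31% in the main fit, and the fold change hardly moved. The 300 bases around its annotated start are shown because Pdk4 is a textbook target of FOXO factors and of estrogen-related receptors. The window, from RefSeq on GRCm38.p6 (chr6:5496229-5496528, minus strand), runs from 250 bases before to 50 bases after the start, with CG dinucleotides in capitals.
Pdk4 promoter window: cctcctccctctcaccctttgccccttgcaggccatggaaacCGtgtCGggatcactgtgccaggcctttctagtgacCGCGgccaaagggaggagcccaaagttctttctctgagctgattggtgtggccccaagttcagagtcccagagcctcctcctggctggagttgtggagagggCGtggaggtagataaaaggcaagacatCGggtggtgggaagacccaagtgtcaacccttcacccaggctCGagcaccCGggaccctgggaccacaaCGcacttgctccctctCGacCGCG
The window holds 12 CG dinucleotides, beside a median of 7 over 32851 windows of the same length. Neither GTAAACA, a forkhead motif, nor TNAAGGTCA, an estrogen-related receptor motif, occurs in it on either strand, and the MEF2 consensus is not in it either. These letters occur in 3.65%, 1.28% and 3.19% of all windows, and in 0 of the 13 windows found for 9 of the 10 genes. Pdp1 had no window.

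As shares of the summed kinase level per length, Pdk2 and Pdk4 made up nearly all of it. Pdk2 held 57.7% and 58.6% in WT, against 70.1% and 61.5% in Mef2dα2 Eko. Pdk4 held 38.1% and 36.5% in WT, against 24.8% and 34.2% in Mef2dα2 Eko. The genotypes did not overlap for either share, with a mean difference of 7.66 percentage points for Pdk2 and -7.8 points for Pdk4 (exact permutation test, two-sided, p = 0.333 for each, the smallest possible). The shares are parts of a whole, so these differences mirror each other. Without Mef2dα2 Eko replicate 1 they came to 3.34 and -3.08 points, and without Mef2dα2 Eko replicate 2 to 12 and -12.5 points. Pdk1 held between 4.18% and 5.08%, and Pdk3 between 0.0673% and 0.0825%. With the longest transcript as the length, the WT mean share was 64.8% for Pdk2 and 29.7% for Pdk4. The summed kinase level per length relative to Pdha1, the kinases' substrate, was 1.45 and 1.36 in WT, against 1.36 and 1.55 in Mef2dα2 Eko, a log2 difference of 0.05 (exact permutation test, p = 1).

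**Figure D3:**
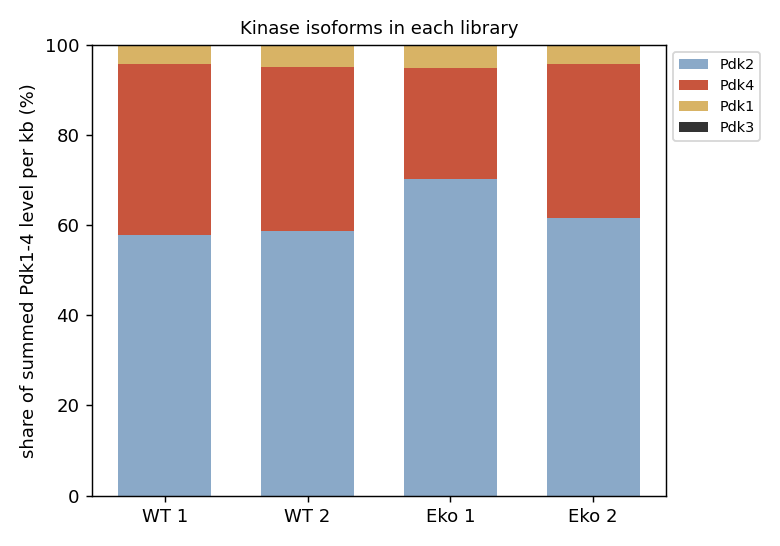
Share (%) of each kinase transcript in the summed level per kb of Pdk1, Pdk2, Pdk3 and Pdk4, as a stacked bar for each of the 4 libraries. Pdk2 takes 57.7% to 70.1% and Pdk4 24.8% to 38.1%, with the smallest Pdk4 share in Mef2dα2 Eko replicate 1, and Pdk3 is too small to be seen.

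Pdp1, the phosphatase that reverses the kinases' mark (ENSMUSG00000049225.14, chr4:11958184-11966452, minus strand), was at 117 and 93.3 CPM in WT and at 132 and 113 CPM in Mef2dα2 Eko. The groups overlapped, since the lower Mef2dα2 Eko mouse lay below the higher WT mouse. The log2 fold change was 0.22 with an interval from -0.07 to 0.51 (edgeR adjusted p = 0.536), and it moved to 0.39 without WT replicate 1, 0.08 without WT replicate 2 and 0.12 without Mef2dα2 Eko replicate 1. The ratio of Pdp1 to the summed kinases per length was 0.113 and 0.0962 in WT, against 0.152 and 0.111 in Mef2dα2 Eko. These also overlapped (log2 difference 0.32, exact permutation test, two-sided, p = 0.667), and the difference was 0.09 without Mef2dα2 Eko replicate 1, 0.55 without Mef2dα2 Eko replicate 2 and 0.2 without WT replicate 2.

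MPC1 and MPC2 form the carrier together, and each subunit is needed for a working carrier. Mpc1 (ENSMUSG00000023861.17, chr17:8282904-8297661, plus strand) was at 183 and 179 CPM in WT and at 172 and 161 CPM in Mef2dα2 Eko. Mpc2 (ENSMUSG00000026568.6, chr1:165460637-165481214, plus strand) was at 85.5 and 90.7 CPM in WT and at 79.4 and 77.2 CPM in Mef2dα2 Eko. The genotypes did not overlap for either subunit, with Mef2dα2 Eko on the low side. The log2 fold change was -0.12 for Mpc1 (interval -0.28 to 0.04, edgeR adjusted p = 0.549) and -0.17 for Mpc2 (interval -0.33 to -0.01, unadjusted p = 0.0411, adjusted p = 0.41). Neither passed the threshold. For Mpc1 the value was -0.07 without Mef2dα2 Eko replicate 2, and for Mpc2 it was -0.11 without WT replicate 2. The ratio of Mpc1 to Mpc2 per length was 7.57 and 6.96 in WT, against 7.66 and 7.34 in Mef2dα2 Eko (log2 difference 0.05, exact permutation test, p = 0.667). The level of Mpc1 is uncertain on 2 accounts. Its processed copy Mpc1-ps was listed with 1530 to 2098 counts, 12.8% to 15.1% of those of Mpc1, and could share reads with it. Its exons also overlap the noncoding 4930506C21Rik on the opposite strand.

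**Figure D4:**
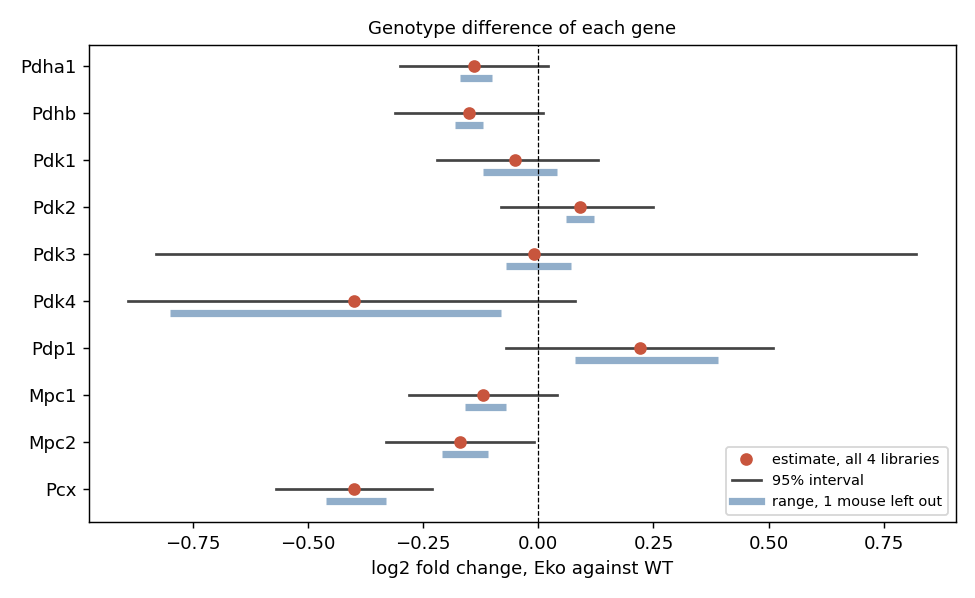
Log2 fold change of Mef2dα2 Eko against WT for each transcript, with its 95% interval from edgeR as a thin line and the range of values when 1 mouse is left out as a thick bar. The intervals of Mpc2 and Pcx lie below 0, and the thick bar is longest for Pdk4, from -0.80 to -0.08.

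Pcx (ENSMUSG00000024892.17, chr19:4510472-4621752, plus strand), which encodes pyruvate carboxylase, showed the clearest separation of the 10. It was at 84.1 and 83 CPM in WT and at 60.7 and 65.9 CPM in Mef2dα2 Eko. The means were 83.5 ± 0.79 and 63.3 ± 3.68 CPM (SD, n = 2 each), and the gap between genotypes was several times the spread within either. The log2 fold change was -0.40 (SE 0.07, interval -0.57 to -0.23), which is 0.674 to 0.852 as a fold. Its unadjusted p of 0.000843 ranked 122 among 16120 genes, and after adjustment it missed the threshold (edgeR adjusted p = 0.111). DESeq2 gave -0.39 with an adjusted p of 0.00181, beside 1.97% of all genes called by DESeq2 and 1.15% called lower. Pcx was also called by edgeR's likelihood ratio test (1.23% of all genes called lower) and with no filter on low counts (2.01% called lower). Over the 14 alternatives, which include DESeq2 without its independent filtering, 4 called Pcx, and its log2 fold change stayed between -0.46 and -0.32. Relative to Pdha1, the competing way out of the pyruvate pool, Pcx per length was at 0.112 and 0.111 in WT, against 0.0907 and 0.0947 in Mef2dα2 Eko. The genotypes were apart in this ratio (log2 difference -0.26, exact permutation test, two-sided, p = 0.333, the smallest possible).

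RefSeq places starts of Pcx transcripts in windows far apart, and gene counts do not say from which of them the RNA came. They are shown because Pcx separated the genotypes most clearly. Which transcripts carry its difference was not tested. Each runs from 250 bases before to 50 bases after the start on the plus strand of GRCm38.p6, with CG dinucleotides in capitals. The upstream window is chr19:4510222-4510521 and the downstream window chr19:4594069-4594368.
Pcx upstream window: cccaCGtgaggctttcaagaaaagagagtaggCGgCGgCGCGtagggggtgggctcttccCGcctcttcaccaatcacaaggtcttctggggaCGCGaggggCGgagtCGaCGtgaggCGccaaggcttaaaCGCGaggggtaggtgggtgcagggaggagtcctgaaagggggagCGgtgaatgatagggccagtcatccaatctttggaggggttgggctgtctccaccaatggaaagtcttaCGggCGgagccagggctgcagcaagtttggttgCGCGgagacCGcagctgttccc
Pcx downstream window: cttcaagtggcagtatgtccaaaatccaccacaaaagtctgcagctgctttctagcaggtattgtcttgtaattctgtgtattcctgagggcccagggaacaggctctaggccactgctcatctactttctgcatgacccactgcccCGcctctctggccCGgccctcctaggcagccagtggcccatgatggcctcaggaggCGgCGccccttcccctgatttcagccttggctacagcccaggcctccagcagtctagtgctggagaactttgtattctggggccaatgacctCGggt
The upstream window holds 20 CG dinucleotides and the downstream window 5, beside a range of 2 to 39 over all 13 windows. As for Pdk4, none of the 3 motifs occurs in them.

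Adipocytes, macrophages and other cells lie between muscle fibers, and Pcx is also abundant in adipocytes. In whole muscle, fewer cells of a type and less RNA per cell cannot be told apart. The summed level of 8 adipocyte markers was 170 and 101 CPM in WT and 95.6 and 71.8 CPM in Mef2dα2 Eko. Of these 8, 7 had a negative log2 fold change, none passed the edgeR threshold, 5 had an unadjusted p below 0.05, the median was -1.14, and none was at 0 in any library. Adipoq, which encodes adiponectin, was at 9.87 and 4.83 CPM in WT and at 4.86 and 2.01 CPM in Mef2dα2 Eko. Fabp4 was the largest part of the adipocyte sum in every library, at 86.9 and 68.8 CPM in WT and at 68.8 and 60.2 CPM in Mef2dα2 Eko. Cfd, the next largest, was at 48.5 and 16.9 CPM in WT and at 8.61 and 5.72 CPM in Mef2dα2 Eko. The summed level of 8 macrophage markers was 60.3 and 47.7 CPM in WT and 39.5 and 30.6 CPM in Mef2dα2 Eko, with all 8 negative, none called and 6 with an unadjusted p below 0.05. Both sums were thus lower in Mef2dα2 Eko, as Pcx was. The adipocyte sum of Mef2dα2 Eko replicate 1 differed from that of WT replicate 2 by -0.07 on the log2 scale, and between these mice Pcx differed by -0.45, Pdha1 by -0.16 and the macrophage sum by -0.27. Between Mef2dα2 Eko replicate 2 and WT replicate 2 the adipocyte sum differed by -0.49, the macrophage sum by -0.64, Pcx by -0.33 and Pdha1 by -0.11. Both pairs use WT replicate 2, the WT mouse with the lower adipocyte and macrophage sums. Pairs with WT replicate 1, whose adipocyte sum was 170 CPM, were not computed. The part of either cell type in the Pcx difference was not tested. The skeletal muscle markers summed to between 123000 and 128000 CPM in every library, and Myh1, a fast fiber myosin in that list, was at 4970 and 3980 CPM in WT and at 3480 and 3120 CPM in Mef2dα2 Eko (log2 fold change -0.44, edgeR adjusted p = 0.261). The 8 slow and oxidative fiber markers summed to 1960 and 2590 CPM in WT and to 1850 and 1420 CPM in Mef2dα2 Eko, so this sum, too, was lower in both Mef2dα2 Eko mice. Of these 8, 7 were negative with a median of -0.38, none was called and 1 had an unadjusted p below 0.05. That 1 was Myh2, the myosin of fast oxidative fibers, at 1580 and 1710 CPM in WT and at 1260 and 1040 CPM in Mef2dα2 Eko (log2 fold change -0.51, edgeR adjusted p = 0.161). Myh2 made up most of the slow and oxidative sum in every library. For the other 7 markers of that list the genotypes overlapped. The part of fiber type in the differences of the 10 genes was not tested. Endothelial markers summed to 143 to 167 CPM, fibroblast markers to 341 to 441, red blood cell markers to 108 to 111 and smooth muscle markers to 53.7 to 68.1 CPM over the 4 libraries, and none of these lists held a gene that was called. Of the 6 fibroblast markers, 4 were negative and 2 positive, and 2 had an unadjusted p below 0.05. Schwann cell markers summed to 40 and 42 CPM in WT and to 44 and 52.8 CPM in Mef2dα2 Eko. All 5 were positive, 2 had an unadjusted p below 0.05 and none was called.

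**Figure D5:**
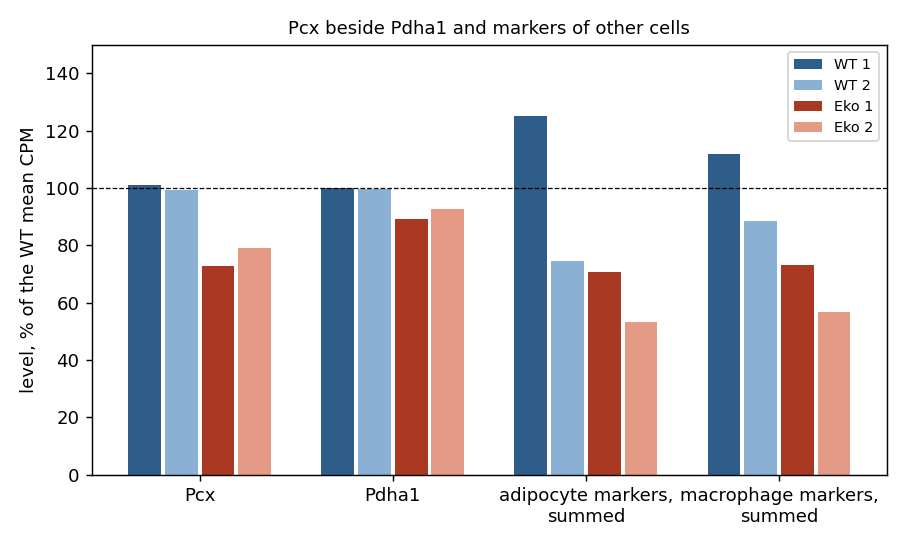
Level of Pcx, of Pdha1 and of the summed adipocyte and macrophage markers in each library, as a percentage of the WT mean CPM, marked by the dashed line at 100. Pcx is at 101, 99.3, 72.7 and 78.9 and the adipocyte sum at 125, 74.6, 70.8 and 53.1 in WT replicates 1 and 2 and Mef2dα2 Eko replicates 1 and 2. The macrophage sum is at 112, 88.3, 73.2 and 56.7 and Pdha1 at 100, 99.7, 89.1 and 92.6 in the same order.

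The genes around these steps were counted by list. Among 13 genes of pyruvate supply and its other fates, 1 was called: Slc16a1, which encodes the lactate and pyruvate transporter MCT1 of the plasma membrane. Slc16a1 was at 42.3 and 43.1 CPM in WT and at 30.2 and 30.9 CPM in Mef2dα2 Eko. It fell in Mef2dα2 Eko, to 71.5% of the WT mean (log2 fold change -0.48, SE 0.07, interval -0.64 to -0.33, edgeR adjusted p = 0.0484), with the genotypes far apart. The call sits at the threshold, and 9 of 14 alternatives kept it. It was lost without Mef2dα2 Eko replicate 1 (log2 fold change -0.45, adjusted p = 0.2) and without Mef2dα2 Eko replicate 2 (-0.50, adjusted p = 0.16), with a fold change close to that of all 4 mice. In that list 10 genes had a negative log2 fold change and 3 a positive one, with a median of -0.17.

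Of the 11 other genes of the pyruvate dehydrogenase complex and its cofactors, 10 were tested and none was called by edgeR, DESeq2 or limma-voom, and 0 had an unadjusted p below 0.05. Their median was -0.08, with 8 negative and 2 positive. Dld, the dehydrogenase subunit that the complex shares with the other ketoacid dehydrogenases, was at 175 and 178 CPM in WT and at 174 and 178 CPM in Mef2dα2 Eko, a log2 fold change of 0.00 (adjusted p = 0.989).

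Downstream, none of the 16 citric acid cycle genes was called by edgeR, DESeq2 or limma-voom, and 1 had an unadjusted p below 0.05. They divided evenly, 8 negative and 8 positive, with a median of -0.02. Dlst, the succinyltransferase of the ketoglutarate dehydrogenase complex, was at 241 and 234 CPM in WT and at 205 and 203 CPM in Mef2dα2 Eko (-0.22, adjusted p = 0.281).

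The branched-chain ketoacid dehydrogenase is built like pyruvate dehydrogenase and has a kinase of the same family. None of its 5 genes was called by edgeR, 2 had an unadjusted p below 0.05, and 4 of the 5 were positive with a median of 0.17. Dbt, its transacylase, was at 20.3 and 24.7 CPM in WT and at 32.8 and 33.6 CPM in Mef2dα2 Eko (log2 fold change 0.56, SE 0.1, adjusted p = 0.118), and DESeq2 called it (adjusted p = 0.000835). Its kinase Bckdk was at 104 and 108 CPM in WT and again at 104 and 108 CPM in Mef2dα2 Eko (-0.01, adjusted p = 0.975). Of 8 other biotin enzymes and biotin-handling genes, 0 were called by edgeR, DESeq2 or limma-voom, 2 had an unadjusted p below 0.05, and 6 were positive with a median of 0.11. Mccc2, a subunit of another biotin carboxylase, was at 13.7 and 14.3 CPM in WT and at 17.4 and 18 CPM in Mef2dα2 Eko (0.34, adjusted p = 0.193). Acacb, the muscle acetyl-CoA carboxylase, was at 358 and 355 CPM in WT and at 313 and 332 CPM in Mef2dα2 Eko (-0.14, adjusted p = 0.477). The sign of Pcx was thus not that of most other biotin genes.

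Pdk4 is commonly read together with other genes that fasting moves in muscle. None of the 13 such genes was called by edgeR, 3 had an unadjusted p below 0.05, and 8 were negative and 5 positive with a median of -0.12. Txnip, an inhibitor of glucose uptake, was at 421 and 213 CPM in WT and at 430 and 353 CPM in Mef2dα2 Eko (log2 fold change 0.31, adjusted p = 0.722). WT replicate 2 stood below the others for Txnip, unlike for Pdk4, and without WT replicate 1 the log2 fold change was 0.88 (adjusted p = 0.0241), in a fit where that lone WT mouse is assumed to vary as the Mef2dα2 Eko mice do. Acot1, an acyl-CoA thioesterase, was at 0.633 and 1.36 CPM in WT and at 0.441 and 0.517 CPM in Mef2dα2 Eko (-1.06, adjusted p = 0.403). DESeq2 called 1 gene of this list, Fbxo32, a ubiquitin ligase of muscle atrophy (0.37, adjusted p = 0.0035).

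Among all genes tested, those whose levels moved most like Pcx over the 4 libraries were Anxa7, Frmd8 and Nat8f1, with root mean square differences of 0.013, 0.022 and 0.026 in log2 level after each gene was centered on its own mean. Anxa7 was at 65.6 CPM in both WT mice, against 47.7 and 52.7 CPM in Mef2dα2 Eko. Those most like Pdk4 were Epb41l4a, Patj and Shroom3, at 0.029, 0.034 and 0.038. They are given as a description over 4 libraries of 16120 genes.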

How the data were processed

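Quadriceps RNA of 2 WT and 2 Mef2dα2 Eko mice was sequenced, with 1 library per mouse, and genotypes were taken from the sample labels. The authors prepared polyA-selected stranded libraries, aligned the reads to mm10 and estimated expected counts per gene with RSEM and Ensembl GRCm38 annotation, and these expected counts were deposited without normalization. The submitters' processing notes name STAR 2.6.1a. All deposited values were whole, so rounding changed none.

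Genotypes were compared in R 4.3.3 by edgeR 4.0.16 (quasi-likelihood test), with TMM scaling and edgeR's default filter (16120 genes kept of 24621 with a count), and Benjamini-Hochberg adjustment at 0.05. The study's own test was DESeq2. It was run as an alternative (version 1.42.0), beside RLE and upper-quartile scaling, no filter, a minimum of 1 CPM in 2 libraries, the likelihood ratio test, limma-voom (limma 3.58.1), a replicate block and leaving out each mouse. Removal of each library's GC trend was added after the data were seen. Ratios and shares were compared with exact permutation tests. The edgeR step was tested on simulated data.

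The genes, lists and tests were chosen with earlier results of these data known. Named were the 10 genes, from each list any gene called or otherwise those with the highest count and the largest log2 fold change, the 3 genes most like Pcx and Pdk4, and Mef2d, except 2 genes that are not reported here. Adipoq, Fabp4, Cfd, Myh1, Myh2 and Fbxo32 were named after their values were seen, as were genes called under an alternative. Positions come from GENCODE M21, promoters from RefSeq. The table holds 183 rows whose symbol recurs, kept as separate rows.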

Additional observations from a re-analysis of the deposited data

How the results depend on the processing

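With 2 mice per genotype, the intervals of Pdha1, Pdhb and Mpc1 included 0, and Pdk3 was limited by its counts. Of the alternative values for the 10 genes, 130 kept their direction and side of the threshold, 6 newly passed it and 3 changed sign.

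The number of genes called was 67 (74.6% lower), and it was 318 with DESeq2 (58.5% lower), 309 without its independent filtering, 799 with no filter on low counts (62.1% lower), 23 with at least 1 CPM in 2 libraries, 312 with the likelihood ratio test (63.5% lower), 44 with the GC trend removed and between 28 (without Mef2dα2 Eko replicate 2) and 240 (without WT replicate 2) with 1 mouse left out. Of the 10 genes, DESeq2 with and without independent filtering called 1 (Pcx), the likelihood ratio test 1 (Pcx), no filter 2 (Pcx and Pdk4), and leaving out a mouse 0 to 1 (Pdk4). Of the supply genes, RLE scaling, the 1 CPM minimum and limma-voom called 0, no filter 2, and leaving out a mouse 0 to 1. Of the branched-chain genes, both DESeq2 settings, no filter and the likelihood ratio test called 1 (Dbt), and leaving out a mouse 0 to 1. No filter called 1 biotin gene (Mccc2) and 6 fasting genes. Both DESeq2 settings and the likelihood ratio test called 1 fasting gene, and leaving out a mouse 0 to 1.

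The study describes the mice as littermates, but neither it nor the labels say which mice share a litter, and the replicate numbers name none. The deviations of same-numbered mice correlated at 0.0909 over genes, so the numbers were not taken to pair the mice. With the replicate block, 186 genes, 0 of the 10 genes and 1 branched-chain gene (Dbt) were called, and Pcx had an adjusted p of 0.0536.

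With 1 mouse left out, log2 fold changes ran from -0.12 to 0.04 for Pdk1 and from -0.07 to 0.07 for Pdk3, share differences from -0.257 to 0.526 points for Pdk1 and from -0.00124 to 0.00998 for Pdk3, and log2 ratio differences from -0.04 to 0.07 for Pdha1 to Pdhb, from -0.01 to 0.11 for Mpc1 to Mpc2 and from -0.04 to 0.14 for the summed kinases to Pdha1. The log2 fold change of Pcx was -0.32 with the GC trend removed (adjusted p = 0.224), and across genes log2 fold changes had a rank correlation of -0.214 with GC content.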
